A study of Homo sapiens with 2 samples.

Results

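On chromosome 14, ITPK1 and IRF2BPL were the authors' nearest genes of some of the highest-scoring distal IRF1 binding summits. Distal here means more than 10 kb from the transcription start sites (TSS) used by the authors. By RefSeq starts the IRF2BPL summits were not distal, as given below. A summit is the single base at which a ChIP-seq peak is highest. The members were all rows of the deposited IRF1 summit list with ITPK1 or IRF2BPL as the nearest gene, at any distance, together with every chromosome 14 summit within 300 kb of those rows. This gave 3 summits of 1986, 1 for ITPK1 and 2 for IRF2BPL, and 0 further summits within 300 kb. ITPK1 and IRF2BPL were selected on the peak scores and TSS distances of this same list, so their scores, distances and ranks are a description and were not tested.

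IRF1 had been profiled by chromatin immunoprecipitation and sequencing in NB4, an established acute promyelocytic leukemia line with the PML-RARA fusion, whose source the labels give as bone marrow. There were 2 libraries, a control that per the labels' protocols received the solvent DMSO, and 1 exposed to all-trans retinoic acid (ATRA), the drug that drives these cells to differentiate, with 4 hours given for both. The summit list bears the name of the ATRA library. The control library's values are not analysed here, so no gain or loss with ATRA can be given. With 1 library in 1 cell line there is no spread between replicates, and how many reads lie behind a summit is unknown.

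IRF1 is a transcription factor induced by interferon that activates antiviral and antigen presentation genes. Factors of its family recognise repeated GAAA cores with a short spacer, as in the interferon-stimulated response element, and can bind at promoters or at distant enhancers. ITPK1 encodes inositol-tetrakisphosphate 1-kinase, which makes highly phosphorylated inositols, and these products are known to license the necroptosis effector MLKL. IRF2BPL encodes a relative of the IRF2-binding proteins IRF2BP1 and IRF2BP2, which act as corepressors of the factor IRF2.

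The ITPK1 summit lay inside the gene at chromosome 14 position 93103862 (hg38). Its distance from the TSS used by the authors was 12056 bp, and it was annotated to intron 2 of 10 of transcript NM_001142594, with no repeat named there. The authors' peak score was 285. In the RefSeq gene table of GRCh38.p14 ITPK1 spans positions 92936914 to 93115925, a length of 179 kb on the minus strand, so that the summit lay 6.74% of the way into the gene from its upstream end. A downstream ITPK1 start at position 93036974 in the same source lay 66.9 kb farther along the gene. Summits in an intron numbered 698 in the list, of which 321 were in intron 1 and 123 in intron 2. The median score of the intron 2 summits was 23.8 and their highest was that of ITPK1.

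The IRF2BPL summits lay at positions 76953798 and 76962150, 8352 bp apart, and both were classed as intergenic. The farther one, 74901 bp from the IRF2BPL start used by the authors, had a score of 230.3 and no repeat named. The nearer one, 66549 bp from that start, had a score of 201 and lay in a simple repeat that the annotation names (TCACTT)n. IRF2BPL is short, 4.17 kb from position 77024543 to 77028708 on the minus strand, and both summits lay beyond its downstream end, at 70.7 kb and 62.4 kb from it. The 2 scores were close to each other, with a ratio of 1.14, and below the score of ITPK1.

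The promoter sequences are shown because no summit was listed in them, and the named repeat because a summit lay in it. The promoter windows are from RefSeq (GRCh38.p14), run 250 bases upstream to 50 bases downstream of the start, and are written 5′ to 3′ along the gene. They are ITPK1 at chr14:93115876-93116175 on the minus strand, IRF2BPL at chr14:77028659-77028958 on the minus strand, and the long non-coding RNA gene LINC01629 at chr14:76959388-76959687 on the plus strand. Capitals mark every GAAA core or its reverse complement TTTC.
ITPK1 promoter: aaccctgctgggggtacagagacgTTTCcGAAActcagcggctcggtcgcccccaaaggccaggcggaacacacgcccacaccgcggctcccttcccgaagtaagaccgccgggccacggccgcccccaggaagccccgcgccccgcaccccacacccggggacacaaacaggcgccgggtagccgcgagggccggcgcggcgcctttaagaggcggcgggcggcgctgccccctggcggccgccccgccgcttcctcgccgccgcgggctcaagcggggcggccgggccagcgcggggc
IRF2BPL promoter: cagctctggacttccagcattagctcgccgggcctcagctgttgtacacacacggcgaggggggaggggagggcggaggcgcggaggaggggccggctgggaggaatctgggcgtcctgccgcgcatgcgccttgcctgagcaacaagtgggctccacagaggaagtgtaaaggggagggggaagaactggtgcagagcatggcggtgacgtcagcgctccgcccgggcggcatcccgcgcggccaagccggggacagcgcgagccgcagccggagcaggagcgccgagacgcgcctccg
LINC01629 promoter: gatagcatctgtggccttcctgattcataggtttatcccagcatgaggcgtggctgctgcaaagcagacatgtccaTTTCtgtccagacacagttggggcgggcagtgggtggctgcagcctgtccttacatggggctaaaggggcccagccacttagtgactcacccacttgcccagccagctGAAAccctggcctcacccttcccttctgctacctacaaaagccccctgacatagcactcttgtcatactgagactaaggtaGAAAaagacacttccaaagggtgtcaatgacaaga

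The motif searched was a GAAA core, then any 2 bases, then a second GAAA core. It was looked for on both strands with overlaps allowed, and was in none of these 3 windows or in that of the downstream ITPK1 start. The ITPK1 window held 2 single cores, the IRF2BPL window 0 and the LINC01629 window 3. None of the 4 windows contained a summit. Over all promoter windows of the RefSeq source, 1255 of 35116 held the motif (3.57%), and among the 302 windows with a summit inside them 117 did (38.7%). These shares describe the letters in a window of 300 bases. No sequence of the summits themselves was read, and a match or its absence in the windows says nothing on where IRF1 was bound in these loci.

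The repeat under the nearer IRF2BPL summit is known here only by its unit. Written out in 4 copies and read on the other strand, the unit TCACTT becomes AAGTGA and gives the motif in an unbroken series, with a GAAA core every 6 bases. Of 23 summits in simple repeats, 7 had a unit that gives the motif in this way. IGSF6, an immunoglobulin superfamily gene, has a summit in the same hexamer started at another base, and the non-coding gene LINC03016 and the Polycomb gene RYBP have units with other spacer letters. Capitals mark the paired cores, and the letters are the repeat names written out, not genome sequence.
IRF2BPL, (TCACTT)n: aagtGAAAgtGAAAgtGAAAgtga
IGSF6, (CACTTT)n: aaagtGAAAgtGAAAgtGAAAgtg
LINC03016, (ACTGAA)n: actGAAActGAAActGAAActgaa
RYBP, (TTTCCC)n: ggGAAAggGAAAggGAAAggGAAA

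Among the 23 simple repeat summits that of IRF2BPL had the highest score. IGSF6, with the same hexamer, had 58.2, RYBP had 33.6 and LINC03016 had 32.8. The 7 summits whose unit gives the motif had scores from 16.6 to 201 with a median of 32.8, and the other 16 had a median of 38.6 and a maximum of 147. The median of the 7 motif-giving summits was not above that of the other 16. These groups are small and no genome sequence was read, so nothing follows on the motif. The IRF2BPL summit is among the 7 and was chosen with its score known, so its lead over the other 6 is a description.

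**Figure D1:**
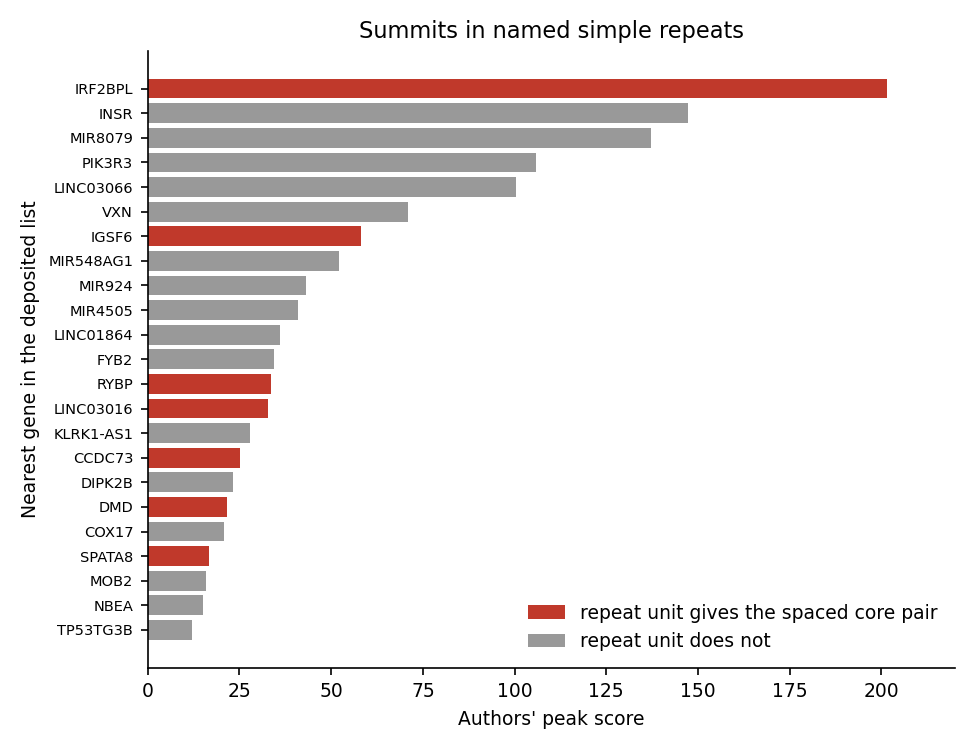
Authors' peak score (horizontal axis, no stated unit) of the 23 summits in named simple repeats, 1 bar per summit labelled by the nearest gene. Red bars are the 7 whose repeat unit, written in tandem, gives a pair of GAAA cores spaced by 2 bases, and the IRF2BPL bar (201) is the longest of all while the other red bars run from 16.6 to 58.2.

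Ranked by score over the whole list, the ITPK1 summit was 7th of 1986, the farther IRF2BPL summit 18th and the nearer one 29th. On chromosome 14, with 51 summits, they held ranks 2, 3 and 4, behind the promoter summit of the proteasome activator gene PSME1. The list had 1012 summits more than 10 kb from the TSS used by the authors, and in that set the ITPK1 summit ranked 1st, the farther IRF2BPL summit 3rd and the nearer one 9th. The median score of the set was 25.2, with quartiles of 18.3 and 42.1. All 3 summits were among the 100 highest scores of the list, which held 37 of the 1012 (3.66%), and this share is background only, since the scores chose the members.

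**Figure D2:**
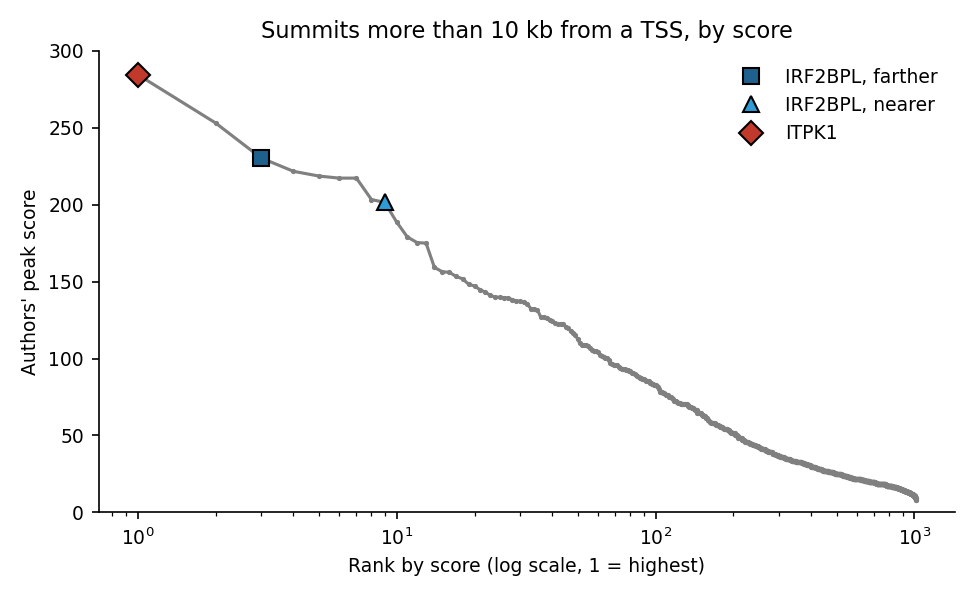
Authors' peak score (vertical axis, no stated unit) of the 1012 summits more than 10 kb from a TSS against their rank (log axis, 1 is the highest). ITPK1 at 285 is the highest point, and the IRF2BPL summits at 230.3 and 201 hold ranks 3 and 9, far above the median of 25.2.

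By class, the ITPK1 summit had the highest score of the 698 intronic summits, whose median was 24.8. The IRF2BPL summits ranked 2nd and 6th of 731 intergenic summits, whose median was also 24.8. Ranks were also taken among summits at a like distance. All these ranks use the scores that chose the members, so they are a description only. ITPK1 was 1st of 240 summits between 10 and 20 kb from a TSS, whose median was 24.0. The IRF2BPL summits were 2nd and 5th of 208 between 50 and 100 kb, where the median was 27.0 and the highest score 253. That of 253 had PSMB1, a proteasome subunit gene, as nearest gene in the deposited list, at 93.7 kb. By RefSeq its nearest start was that of LOC124901235, at 3.46 kb.

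**Figure D3:**
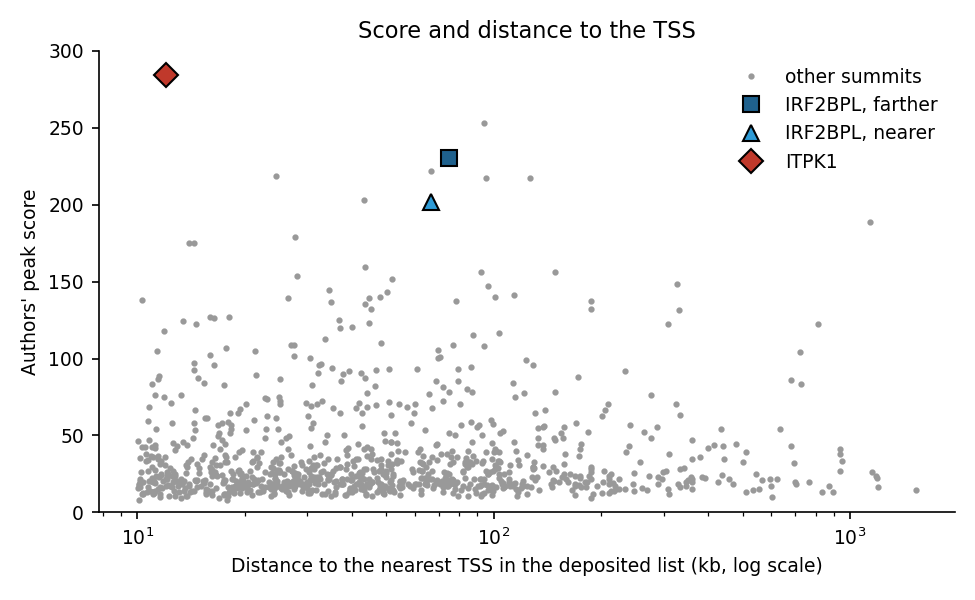
Authors' peak score (vertical axis, no stated unit) against the distance to the nearest TSS in the deposited list (kb, log axis) for the same 1012 summits, with the members as large symbols. ITPK1 is the highest of those at 10 to 20 kb, and only PSMB1 (253) lies above the farther IRF2BPL summit (230.3) between 50 and 100 kb.

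Genes with a similar best score beyond 10 kb were taken from the other 895 genes with such a summit. For ITPK1 they included PSMB1 (253, a difference of 31.5) and the photoreceptor gene RP1L1 (219, at 24.5 kb). RP1L1 was also among those close to IRF2BPL, with a difference of 11.7, followed by QDPR, of biopterin recycling, and the nuclear receptor gene NR5A2, tied at 217. QDPR and NR5A2 had their summits in LTR repeats of the families MLT1H and MLT1A1. Each of these 4 genes had 1 summit beyond 10 kb, and IRF2BPL had 2. Of 897 genes with a summit beyond 10 kb, 78 had 2 or more. Counting only summits beyond 10 kb, IRF2BPL was the only gene with 2 in the 100 highest scores of the list. IRF2BPL was chosen with these scores known, so this is a description.

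The IRF2BPL pair was also compared with other neighbouring summits beyond 10 kb. Another summit of any kind within 10 kb was found for 107 of the 1012 (10.6%). Adjacent summits within 10 kb of each other that were both beyond 10 kb from a TSS made 69 pairs, of which 34 lay in a dense block on the short arm of chromosome 21. In the other 35 the median spacing was 1819 bp and the median of the lower score of a pair was 18.7. The IRF2BPL pair, at 8352 bp, was more widely spaced than most, with 5 pairs wider. It was the only one of the 35 with both scores above 100, and it was chosen with these scores known. The next pair by its lower score, named after its values were seen, was at ZBTB7A, a transcriptional repressor gene, with 82.6 and 54.1.

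Apart from the pair itself, no member had another summit within 300 kb. The summits nearest to ITPK1 were 867 kb away at ASB2, a retinoic acid target in this leukemia, with a score of 124, and 1.61 Mb away at the phosphatase subunit gene PPP4R3A, with a score of 31.1. These are the summits just outside the 300 kb limit for ITPK1. The nearest neighbours of the IRF2BPL pair were 1.44 Mb away at BATF, an AP-1 family factor known to cooperate with IRF proteins, with a score of 46.5, and 8.97 Mb away at the non-coding gene LINC02328, with a score of 163. A lack of other summits within 300 kb, as for ITPK1, was common and applied to 556 of the 1012 summits (54.9%). The gap of ITPK1 to its nearest neighbour was exceeded by 28.1% of them.

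**Figure D4:**
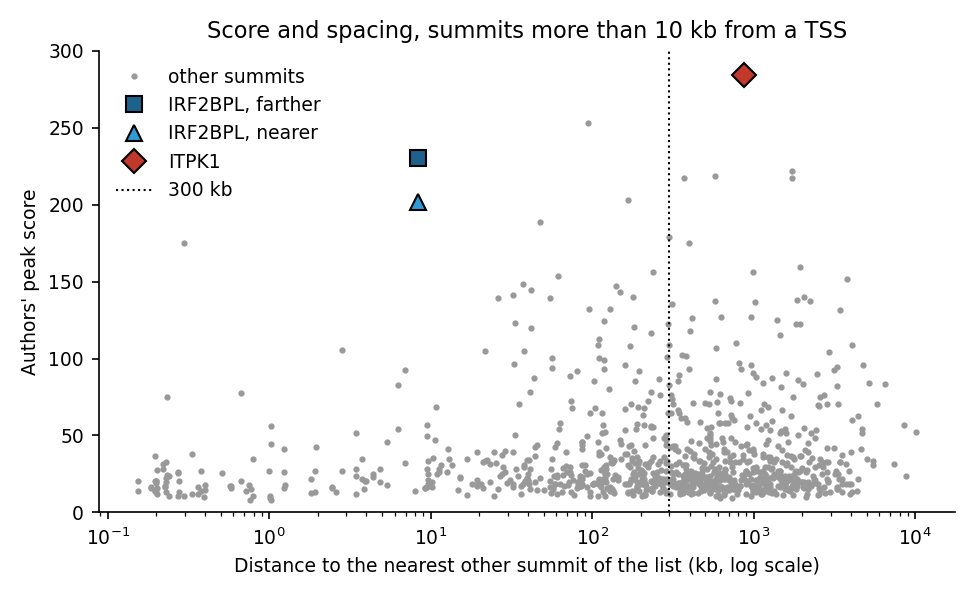
Authors' peak score (vertical axis, no stated unit) against the distance to the nearest other summit (kb, log axis) for the 1012 summits more than 10 kb from a TSS, with the 300 kb limit dotted. ITPK1 lies to the right of the limit at 867 kb, and the IRF2BPL summits, 8352 bp apart, lie far above the other closely spaced summits, apart from 1 at ATXN7 (175).

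The RefSeq genes around the summits were listed to show which genes lie near. Distances run from the summit to the nearest end of the gene span, which need not be its start. Within 300 kb of the ITPK1 summit were 10 protein-coding genes, namely ITPK1 itself, GOLGA5, CHGA, MOAP1, LYSET, GON7, UBR7, BTBD7, UNC79 and COX8C. CHGA, which encodes chromogranin A, lay 169 kb away. MOAP1, a regulator of apoptosis, lay 78.3 kb away and LYSET, needed for lysosomal enzyme sorting, 81.1 kb away. Around the IRF2BPL summits were 7, namely IRF2BPL, VASH1, ANGEL1, LRRC74A, CIPC, ZDHHC22 and TMEM63C. For the nearer summit, LRRC74A was 91.8 kb away, CIPC, a regulator of the circadian factor CLOCK, 136 kb, and the tubulin carboxypeptidase gene VASH1 179 kb. Of these 17 genes, ITPK1 and IRF2BPL alone were the nearest gene of a summit, against 6.38% of all protein-coding genes, and the choice of members fixed both.

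The IRF2BPL summits were not distal by the RefSeq annotation of GRCh38.p14. LINC01629, a long non-coding RNA gene on the plus strand at positions 76959638 to 76965802, has its start between the 2 summits. The farther summit lay 5840 bp upstream of this start, and the nearer one 2512 bp downstream of it, inside the LINC01629 span. For ITPK1 the nearest start stayed its own, at 12063 bp. Of the summits more than 10 kb from the TSS used by the authors, 967 were on chromosomes with starts in the RefSeq promoter source, and 122 of them had a start within 10 kb there (12.6%). Of the 731 intergenic summits, 204 lay inside a RefSeq gene span (27.9%). When distance was measured to the RefSeq starts, 1083 of the 1920 summits on covered chromosomes lay beyond 10 kb. This set also held summits that the deposited list places within 10 kb of a TSS. ITPK1 again ranked 1st in it, and the IRF2BPL summits were not in it. The nearest gene by this measure was LINC01629 for both of them, and which gene a summit acts on was not measured.

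**Figure D5:**
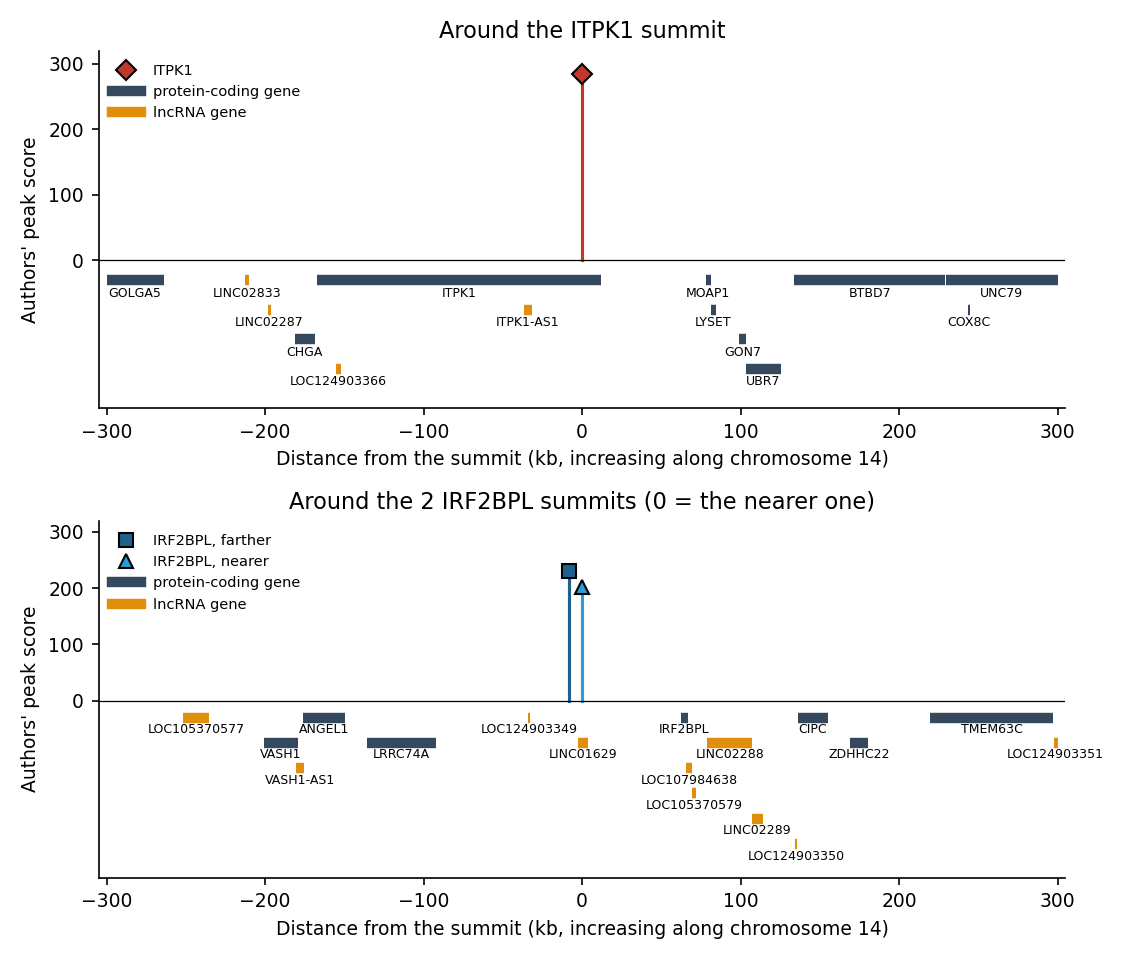
Authors' peak score (vertical axis, no stated unit) of the summits within 300 kb of the ITPK1 summit (upper panel) and of the IRF2BPL summits (lower panel), over the RefSeq protein-coding and long non-coding genes, with the horizontal axis in kb from the summit. Pseudogenes and microRNAs are left out and genes are clipped at the panel edge. The ITPK1 summit lies near the upstream end of its gene, and the start of LINC01629 lies between the IRF2BPL summits.

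None of the 3 summits lay within 10 kb of the TSS used by the authors. The members were selected on these distances, so this is a description and was not tested. Over all protein-coding genes, 3.37% had such a summit. Most genes with a summit beyond 10 kb had none within 10 kb either, and 54 of 897 had both (6.02%).

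Most other genes of the pathways of ITPK1 and IRF2BPL had no summit, as for protein-coding genes in general, of which 6.38% had one. Of 38 genes of inositol phosphate and phosphoinositide metabolism, 5 were the nearest gene of a summit at any distance (13.2%, against 6.38% of all protein-coding genes), and without ITPK1, which was chosen for its summit, 4 of 37. Their best scores ran from 17.2 to 285 with a median of 22.6. The phosphoinositide phosphatase gene SYNJ2 had 36.2 at 19 bp from its TSS. The inositol trisphosphate receptor genes ITPR2 and ITPR1 had 22.6 and 17.2 in introns, at 64.1 kb and 91.3 kb, and the kinase gene ITPKA had 18.5 at 10.2 kb. All 4 were far below ITPK1, whose high score was a reason for its choice, so this contrast says nothing on the pathway. IPMK, IPPK, IP6K1, IP6K2, PPIP5K1 and PPIP5K2, kinases of the same route, were the nearest gene of no summit, nor was the phosphatase gene INPP5D.

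In the list of IRF2 and its partners, 2 of 5 genes had a summit, IRF2BPL and IRF2, and without IRF2BPL, which was chosen for its summits, 1 of 4. IRF2, a factor that competes with IRF1 for the same elements, had a promoter summit of 62.3 at -230 bp and a second of 21.7 at 472 bp. IRF2BP1, IRF2BP2 and VGLL4 had none. Of 4 necroptosis genes that act with inositol phosphates or upstream of MLKL, 2 had a summit. MLKL had 12.7 at 799 bp from its TSS, a rank of 1871 in the list. RIPK1, a kinase upstream of it, had 81.7 at -7971 bp and 22.6 at -8539 bp, and RIPK3 and ZBP1 had none. With 5 and 4 genes these shares carry little weight beside the 6.38% of all protein-coding genes.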

How the data were processed

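IRF1 ChIP-seq summits of 1 deposited list were used, from NB4 cells treated with ATRA for 4 hours. The submitters' processing notes name Bowtie2 2.2.9, MACS 1.4.2 and hg38, and the summits were annotated with annotatePeaks.pl, per the file headers. The peak score is the authors' deposited score, of unstated scale, and was used only within this list. Positions and distances are as deposited by the authors. How peaks were called against a background, with which cutoff, and how reads matching repeats were placed is not given in the sources used here. Python 3.11.15, pandas 2.3.3 and matplotlib 3.10.9 were used to rank summits by score (ties share the best rank), and no test was run. Genes were matched by Entrez identifier to RefSeq (1977 of 1986 summits matched), and names follow it. The RefSeq tables are not complete. The window and motif functions and the merging of close summits were tested on simulated data. The writing out of repeat units was not. Members and lists were chosen with earlier results of these data known. Named genes are ITPK1, IRF2BPL, adjacent chromosome 14 summits, up to 6 members per list with the highest scores, 3 genes of similar score for each, and the 3 highest summits beyond 10 kb. List genes without a summit, genes of the 300 kb windows and simple repeat summits were named in addition, after values were seen. Not every gene named by this rule is reported here.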

Additional observations from a re-analysis of the deposited data

How the results depend on the processing

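Leaving out a replicate was not an option with a lone library in each group. No paired analysis was possible because replicates were lacking. The members were chosen on these same scores and distances, so values that stayed are a description and no measure of robustness. Settings in which a member left the ranked set are not counted in the next tally. Of 45 alternative values 37 stayed within the limits set for them and 8 did not. Among the 19 chromosome 14 summits beyond 10 kb the IRF2BPL summits ranked 2 and 3. Within the 23 simple repeat summits the nearer one ranked 1. A window of 1 Mb gave ITPK1 1 neighbour. Restricting to summits within 10 kb left 1 gene of the inositol list and 1 of the IRF2 list, and restricting to the higher-scoring 50% of summits left 2 of the inositol list and 1 of the necroptosis list. Each of these settings used a smaller set of summits or a wider window, and why the values moved was not tested. Ranks were not given where a member left the set, as for IRF2BPL with RefSeq distances (an alternative chosen after seeing the data) or beyond 100 kb, for ITPK1 beyond 50 kb, and for the repeat summit without repeats.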
